A study of Homo sapiens with 1 sample.

Results

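The blood-lineage and inflammatory miRNAs examined here are 10 mature miRNAs, namely miR-142-3p, miR-142-5p, miR-223-3p, miR-150-5p, miR-155-5p, miR-451a, miR-144-3p, miR-486-5p, miR-146a-5p and miR-146b-5p. They were taken by name from the 2549 human miRNAs on the array, and all 10 were present on it. The data came from 1 array of DLD-1, an established human colorectal carcinoma cell line of epithelial origin, and the labels name no other cells in the culture. The cells carried the negative control plasmid, the empty vector against which circLONP2 overexpression was set in the study. The array of cells overexpressing circLONP2 was not analysed here, so every value describes 1 condition and no difference between conditions was tested.

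miRNAs are short RNAs cut from hairpin precursors, and either arm of a hairpin, named 5p or 3p, can persist as the mature form. Bases 2 to 8 of the mature miRNA, the seed, pair with target mRNAs. Several miRNAs are best known from blood cells: miR-142 is made throughout the blood lineages, miR-223 marks myeloid cells, miR-150 mature lymphocytes, and miR-451a with miR-144 marks red cell precursors. miR-155 and miR-146a are induced by NF-kB signalling in activated immune cells, and miR-146 in turn restrains that pathway by targeting IRAK1 and TRAF6.

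Mature sequences from the RefSeq table used here were matched to 7 of the 10 miRNAs. These are shown 5′ to 3′ with the seed in capitals, so that seeds can be compared between members, and both arms of miR-142 are among them.
hsa-miR-142-3p: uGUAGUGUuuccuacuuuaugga
hsa-miR-142-5p: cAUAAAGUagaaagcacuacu
hsa-miR-223-3p: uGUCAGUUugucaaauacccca
hsa-miR-155-5p: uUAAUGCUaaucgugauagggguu
hsa-miR-144-3p: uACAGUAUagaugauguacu
hsa-miR-146a-5p: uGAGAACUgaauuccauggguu
hsa-miR-146b-5p: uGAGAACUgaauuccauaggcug

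Among these 7 miRNAs, miR-146a-5p and miR-146b-5p were the pair that shared a seed. miR-150-5p, miR-451a and miR-486-5p were not compared. The miR-146 pair was identical at 20 of the 22 positions compared. The 2 differences were G18A and U21C, counted from 1 at the 5′ end with the miR-146a-5p base first. On the array, hsa-miR-7153-5p had the same seed as this pair and hsa-miR-5590-3p the same seed as miR-142-5p, and neither was detected. The 7 sequences ran from 20 to 24 bases, with a GC content from 30.0% in miR-144-3p to 43.5% in miR-146b-5p. The detected miR-142-3p (34.8%), miR-155-5p (37.5%) and miR-223-3p (40.9%) lay within the GC range of the 4 miRNAs that were not detected.

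In the GRCh38.p14 annotation the blood-lineage hairpins mostly overlap long non-coding RNA genes. MIR142 lies on chromosome 17 from 58331232 to 58331318 and overlaps MIR142HG and TSPOAP1-AS1. MIR223 (chromosome X, 66018870 to 66018979) overlaps MIR223HG, MIR155 (chromosome 21, 25573980 to 25574044) MIR155HG, and MIR146A (chromosome 5, 160485352 to 160485450) MIR3142HG. MIR150 (chromosome 19, 49500785 to 49500868) and MIR146B (chromosome 10, 102436512 to 102436584) overlap no other gene in the table used. MIR451A, MIR451B, MIR144 and MIR4732 lie within 362 bases of chromosome 17, from 28861369 to 28861730. All of them overlap the long non-coding RNA gene LOC124903966.

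Each human miRNA had 20 spots, divided over 2 or 3 different probes for the 10 miRNAs. Signal is the brightness of a spot on a linear scale after the scanner software subtracted the local background, so a spot at or below its surroundings reads 0 or less. Of the 200 spots of the 10 miRNAs, 10 were marked as outliers by the software and left out, and no spot of the array was saturated. The spots are technical repeats on 1 array, and their SD says nothing about variation between cultures. Background was judged from 1000 spots of 7 negative control probes, whose 99th percentile was 12.5. That level was mostly set by 1 probe with a mean signal of 8.55 ± 4.48 (SD, 100 spots), while the means of the other 6 probes ran from -3.12 to 2.31. Without it the level was 5.58.

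The software marked 5 of the 10 miRNAs as detected: miR-142-3p, miR-223-3p, miR-150-5p, miR-155-5p and miR-486-5p. Over all human miRNAs on the array the share detected was 56.8%, so the 5 of 10 lay near the background share. RNA came from the whole culture, in which few cells with the miRNA and a low level in all cells cannot be told apart. Of the 5, miR-155-5p and miR-486-5p stood clear of the negative controls on every probe, miR-150-5p did so on 1 of its 3 probes, and miR-142-3p and miR-223-3p were near background. A detected miRNA was called near background when the mean of its brightest probe was less than 2-fold above 12.5, which held for 21.5% of the 1448 detected human miRNAs. The members not detected were miR-142-5p, miR-451a, miR-144-3p, miR-146a-5p and miR-146b-5p.

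**Figure D1:**
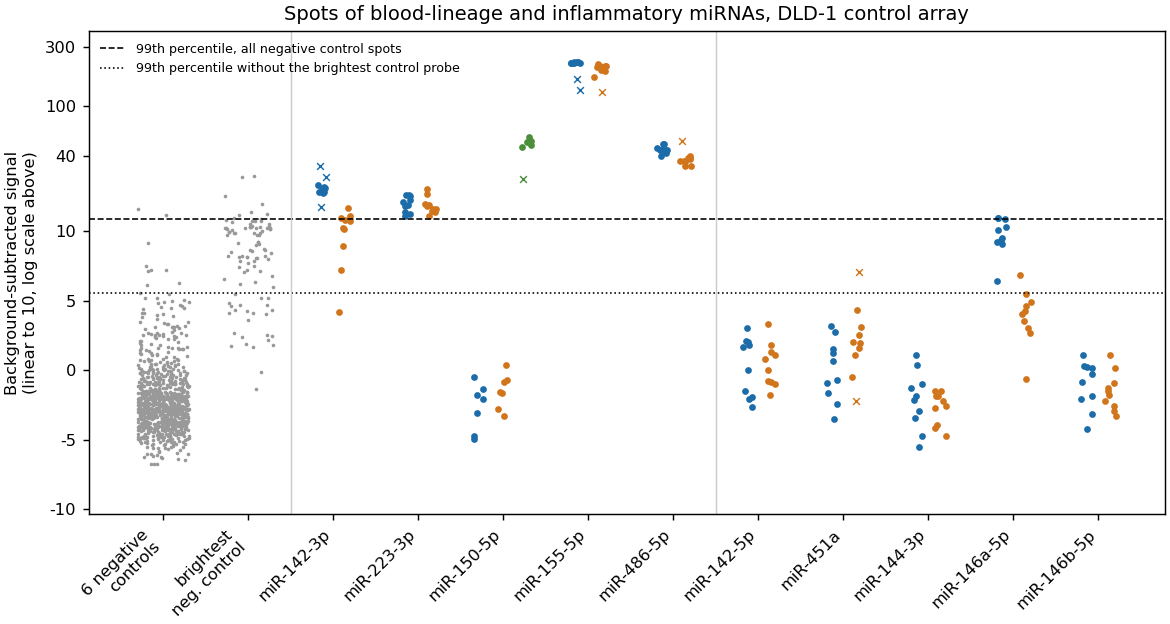
Background-subtracted signal of every spot (y axis, linear up to 10 and logarithmic above) for the negative controls and the 10 miRNAs on the DLD-1 control array, with each probe of a miRNA in its own colour, outlier spots as crosses, and the detected miRNAs between the grey lines. The spots of miR-155-5p, miR-486-5p and miR-223-3p lie above both background levels (12.5, dashed, and 5.58, dotted), those of miR-223-3p no higher than 21.8. So do the spots of 1 of the 3 probes of miR-150-5p and 1 of the 2 of miR-142-3p, and 4 miRNAs lie around 0.

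miR-155-5p, a product of the MIR155HG transcript known from activated lymphocytes and macrophages, had a mean signal of 212 ± 15.5 (SD over 17 spots). Its spots ran from 171 to 227, all 17 were well above background by the software's flag, and all exceeded 27.9, the highest of the negative control spots. Its 2 probes had means of 224 ± 1.46 (8 spots) and 202 ± 14.4 (9 spots), which is 17.9-fold and 16.1-fold over the 99th percentile of the negative controls. The log2 difference between the probes was 0.16 (standard error 0.04 from the spots), which is little beside their height over background. It exceeded 2 standard errors as measured with outlier spots left out. With them kept the probe means on the linear scale were 209 ± 32.2 and 195 ± 26.1 (10 spots each), closer together than either SD. The other arm, miR-155-3p, was not detected. Its 4 probes had means from -4.13 to -2.61, and no spot was positive and significant over background.

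miR-486-5p, which is abundant in red cells and also made in muscle, had a mean signal of 41.2 ± 5.08 (SD over 19 spots), with spots from 33.3 to 49.9. All 19 spots were well above background and above the highest negative control spot. Its probes had means of 45.3 ± 2.97 (10 spots) and 36.8 ± 2.33 (9 spots), or 3.62-fold and 2.94-fold over the 99th percentile. Their log2 difference was 0.30 (standard error 0.04). The other arm, miR-486-3p, was not detected, with probe means from -2.37 to 1.55.

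miR-451a and miR-144-3p, the other members of the red cell lineage, gave signals at the level of the negative controls. miR-451a, which is matured by the slicer Argonaute 2 without Dicer, had a mean signal of 0.914 ± 2.12 (SD over 18 spots), and its highest spot read 4.33. One probe averaged 0.0266 and the other 2.02, and 1 spot was positive and significant. miR-144-3p, from the neighbouring hairpin, had a mean of -2.42 ± 1.68 (SD over 20 spots), with spots from -5.53 to 1.13. Its other arm, miR-144-5p, had a mean of -1.50 ± 1.78 (20 spots). Of the 6 mature miRNAs that the array measures from these 4 neighbouring genes, 1 was detected, against 56.8% of all human miRNAs on the array. This was miR-4732-5p, with a mean of 112 ± 10.7 (SD over 20 spots) and no spot below 93.0. miR-4732-3p and miR-451b, with means of 1.90 ± 3.26 and 1.72 ± 2.36 (20 spots each), were not detected. Of the red cell miRNAs named here, miR-486-5p and miR-4732-5p were thus detected and the others were not. The difference from the share of the array was not tested, and the count is not read as particular to this lineage.

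miR-142 differed between its arms, in that miR-142-3p was detected near background and miR-142-5p was not detected. The 17 spots of miR-142-3p ran from 4.19 to 23.4 with a median of 13.3, and 10 of them exceeded the 99th percentile of the negative controls. This range reflects 2 probes that disagreed, with means of 21.7 ± 1.16 (7 spots) and 10.7 ± 3.28 (10 spots) and a log2 difference of 1.10 (standard error 0.18). All spots of the brighter probe were well above background and no spot of the dimmer one was. The brighter probe lay 1.74-fold over the 99th percentile, and the dimmer one at 0.859 of it. For the brighter probe 3 of 10 spots had been left out as outliers, and with them its mean was 22.9 ± 4.64. miR-142-5p had a mean of 0.341 ± 1.81 (SD over 20 spots), no spot above 3.35 and no spot positive and significant.

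miR-223-3p, the myeloid miRNA, had spots from 13.3 to 21.8 and a mean of 16.5 ± 2.46 (SD over 20 spots). Every spot was above 12.5 and was positive and significant, yet 5 of the 20 were well above background and none reached the highest negative control spot. The probes gave nearly the same value, 16.7 ± 2.41 and 16.3 ± 2.63 (10 spots each), with a log2 difference of 0.04 (standard error 0.10) that lies within the spread between spots. They were 1.34-fold and 1.31-fold over the 99th percentile. Without the 1 bright negative control probe these became 2.99-fold and 2.92-fold, and the brighter miR-142-3p probe 3.89-fold, so neither miRNA was then near background. The other arm, miR-223-5p, was not detected, and its 4 probes had means from 0.122 to 2.98.

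miR-150-5p, which in lymphocytes targets the transcription factor MYB, was detected through 1 of its 3 probes. The probe A_25_P00014847 had a mean of 51.9 ± 3.64 (SD over 5 spots), with all 5 well above background, 4.15-fold over the 99th percentile. The other 2 probes had means of -2.62 ± 1.69 and -1.48 ± 1.26 (7 spots each), and no spot of theirs exceeded 0.370. The kept spots of the 3 probes thus fell into 2 ranges that did not overlap, from -4.91 to 0.370 and from 47.8 to 57.2. A mean over all 19 spots, 12.2 ± 24.5, describes neither. Among the 1448 detected human miRNAs, 18 (1.24%) likewise had a brightest probe over 2-fold above the 99th percentile and another probe with a mean below 0. The opposite arm, miR-150-3p, was measured by 4 probes whose means ran from 146 to 195, and all 20 of its spots were well above background. Its mean was 168 ± 23.2 (SD over 20 spots). MIR150 was the hairpin with both arms detected, among the 8 for which the array measures both. Of the others, 4 had 1 arm detected and 3 had none. The share over all hairpins on the array was not taken. The probe sequences were not used here, and binding of other RNAs to the single bright miR-150-5p probe was not tested.

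**Figure D2:**
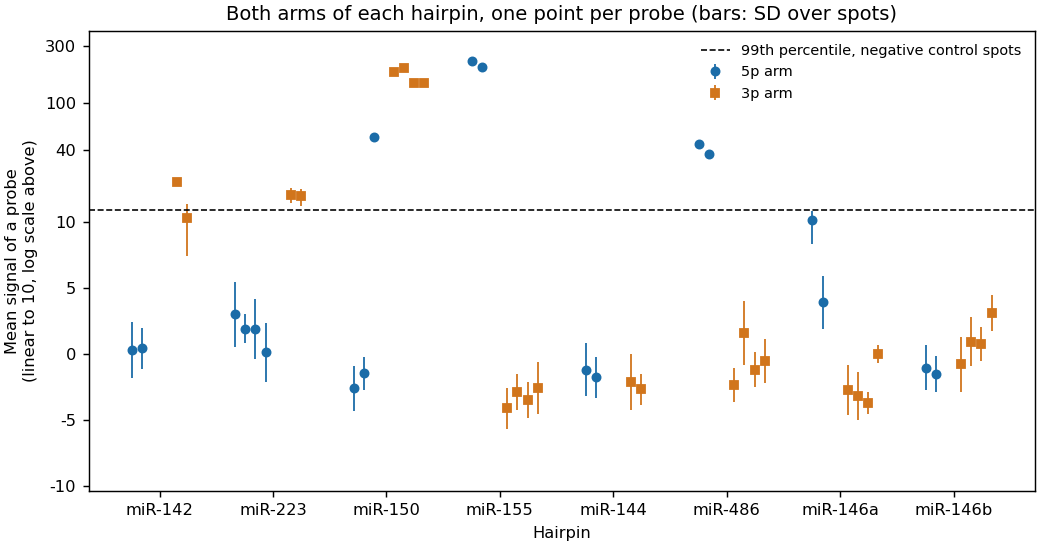
Mean signal of each probe (y axis, linear up to 10 and logarithmic above) for the 5p arm (circles) and the 3p arm (squares) of the 8 hairpins with both arms on the array, with bars for the SD over spots. All 4 probes of miR-150-3p and 1 of the 3 of miR-150-5p lie above the dashed 99th percentile of the negative controls, while for miR-142, miR-223, miR-155 and miR-486 probes above it belong to 1 arm.

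The miR-146 pair, which shares a seed and differs at G18A and U21C in the compared positions, was not detected. miR-146b-5p lay at the level of the negative controls, with a mean of -1.29 ± 1.53 (SD over 20 spots) and spots from -4.21 to 1.09. miR-146a-5p had a mean of 7.08 ± 3.81 (20 spots), and 16 of its spots were positive and significant although none was well above background. The spots of the 2 miRNAs overlapped between -0.622, the lowest of miR-146a-5p, and 1.09. The probes of miR-146a-5p disagreed, with means of 10.3 ± 2.02 and 3.89 ± 1.99 (10 spots each) and a log2 difference of 1.46 (standard error 0.26). The brighter one lay at 0.822 of the 99th percentile of all negative controls and 1.84-fold over that level without the bright control probe. Both other arms, miR-146a-3p and miR-146b-3p, were not detected, with means of -2.55 ± 1.92 (18 spots) and 0.874 ± 2.08 (19 spots).

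The detection flag is a yes or no call, and the deposited columns showed how far each member was from it. For all 2549 human miRNAs the flag was set exactly when at least 1 probe had a total signal more than 3 times its own error. The ratio reached 2.98 among the miRNAs not detected and began at 3.01 among those detected. Of the 21 probes of the members, 8 exceeded 3. The brightest and the dimmest probe of a miRNA differed by over 2 standard errors for 5 members, namely miR-142-3p, miR-150-5p, miR-155-5p, miR-486-5p and miR-146a-5p. No share over all human miRNAs was taken for this count or for the 8 probes, so neither is read as particular to the members. The ratios were 9.86 and 9.81 for the miR-155-5p probes, 7.68 and 6.99 for miR-486-5p, and 8.09 for the single bright miR-150-5p probe. They were 4.06 and 3.97 for miR-223-3p, and 5.00 and 2.74 for miR-142-3p. The brighter miR-146a-5p probe reached 2.63, close below the limit, a value that 38 of the 1101 undetected human miRNAs, itself included, had or exceeded. The ratios of miR-142-5p, miR-451a, miR-144-3p and miR-146b-5p ran from -0.72 to 0.54. miR-146a-5p was thus the undetected member closest to the call, and the other 4 were far from it.

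**Figure D3:**
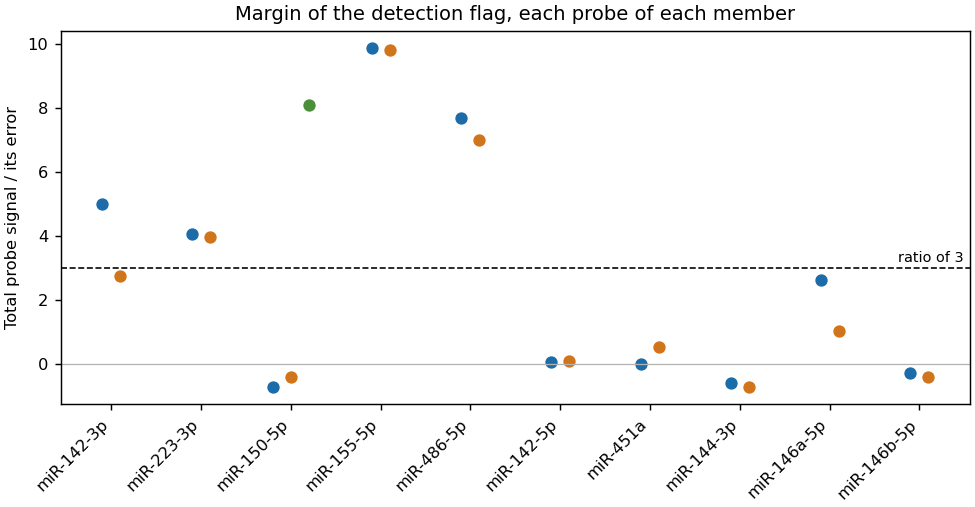
Total signal of each probe divided by its error (y axis, no unit), one point per probe and 2 or 3 probes per miRNA, with the dashed line at the ratio of 3 that sets the detection flag. The 5 miRNAs on the left have at least 1 probe above the line, miR-142-3p and miR-150-5p also have probes below it, and miR-146a-5p reaches 2.63.

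The authors' normalized log2 values of the same array showed the same division, but they are not a separate test of it. In the scanner output, probes below the limit are not added to a total signal. The 5 members not detected thus all had the same total before normalization. All 5 members not detected held 2.32, the lowest value of the table. miR-142-3p held 2.33, the lowest value that any detected human miRNA had. The values were 2.46 for miR-150-5p, 2.50 for miR-223-3p, 3.54 for miR-486-5p and 5.93 for miR-155-5p. In the scanner output the total signal of miR-150-5p, 5.73, was that of its bright probe alone, since probes below the limit are not added, and the total of miR-142-3p likewise came from 1 probe. The normalized table, with 1 value per miRNA, does not hold the differences between probes.

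Related miRNAs were taken from a list of 18, of which 6 were detected (33.3%), against 56.8% of all human miRNAs on the array. Besides the 7 other arms, of which miR-150-3p was detected, the list held 6 further miRNAs of the blood lineages, of which miR-4732-5p, miR-342-5p and miR-181a-5p were detected. miR-342, which lies in an intron of EVL and is known from lymphoid and myeloid cells, repeated the pattern of disagreeing probes. miR-342-5p had probe means of 103 ± 23.6 (10 spots) and -1.47 ± 1.23 (9 spots), and miR-342-3p was not detected, with a mean of 4.39 ± 1.37 (17 spots). miR-181a-5p, which is known from thymocytes but is also made in many tissues, had a mean of 378 ± 61.9 (SD over 19 spots), and each of these spots was well above background.

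Of 5 further miRNAs linked to NF-kB or to the response to bacterial products, 2 were detected. Over all human miRNAs on the array the share detected was 56.8%. Requiring at least 0.5 of a probe's spots to be positive and significant gave 4 of the 5, against 68.9%. The share of this list thus lay below that of the array by the flag and above it by the other criterion. It is not read as particular to these miRNAs. miR-21-5p, which is made in most cell types, had a mean of 229 ± 31.6 (SD over 20 spots). miR-125b-5p had probe means of 72.7 and 13.2, and 9 of its 19 spots were well above background. miR-132-3p, miR-9-5p and miR-147b were not detected. For miR-132-3p all 19 spots were nevertheless positive and significant, with a mean of 10.7 ± 1.71, while miR-9-5p had a mean of -2.04 ± 2.06 (19 spots) and miR-147b of 3.71 ± 5.12 (18 spots).

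As a check of the labelled cell type, 7 of 9 epithelial markers were detected (77.8%), against 56.8% of all human miRNAs on the array. This share is a description and was not tested. The lowest mean among them was 0.209 ± 1.90 (20 spots) for the undetected miR-194-5p, and the highest 3024 ± 401 (20 spots) for miR-141-3p of the miR-200 family, which maintains epithelial identity. miR-192-5p was the other marker not detected. The detected epithelial markers other than miR-141-3p had means from 18.3 for miR-200a-3p to 85.3 for miR-200c-3p, below the 212 of miR-155-5p. Brightness differed even between probes of 1 miRNA, with means of 109 and 51.0 for miR-200c-3p. The order of brightness between miRNAs is therefore not read as an order of abundance. Of 6 markers of stromal or endothelial cells 2 were detected (33.3%). These were miR-126-3p, known from endothelium, and miR-145-5p, known from smooth muscle, with means of 58.9 ± 5.64 (19 spots) and 37.0 ± 5.48 (18 spots). miR-143-3p, which comes from the same primary transcript as miR-145, was not detected, with a mean of -1.33 ± 1.40 (17 spots). Among the 8 members used as blood-lineage markers 5 were detected (62.5%), near the 56.8% of all human miRNAs, with means from -2.42 for miR-144-3p to 212 for miR-155-5p, and miR-451a, miR-144-3p and miR-142-5p at or near 0. Whether RNA of other cells contributed to any signal was not tested.

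**Figure D4:**
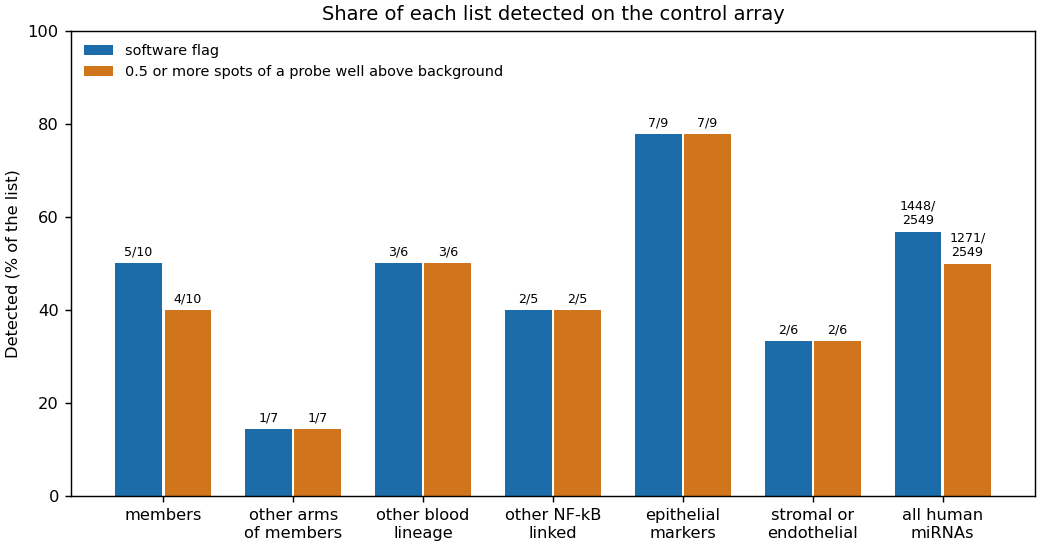
Percentage of each miRNA list detected on the control array (y axis, bars from 0) by the software flag and by the criterion that a probe have a share of 0.5 or higher of its spots flagged well above background, with the counts above the bars. The 10 members (5 and 4 detected) lie a little below the shares of all human miRNAs (56.8% and 49.9%), the other arms lowest and the epithelial markers highest.

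The count of members detected changed by at most 1 under the other criteria tried. A criterion that a share of 0.5 or higher of a probe's spots be flagged well above background left 4 members, with miR-223-3p the one lost, against 49.9% of all human miRNAs. When every spot of a probe had to be so, the same 4 were left, against 45.8%. Requiring at least 0.5 of a probe's spots to be positive and significant gave 6, with miR-146a-5p added, against 68.9%. miR-155-5p, miR-486-5p, miR-150-5p and miR-142-3p were detected under each of the 5 criteria tried, and miR-142-5p, miR-451a, miR-144-3p and miR-146b-5p under none of them.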

How the data were processed

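The sample was 1 miRNA array of DLD-1 cells that received the negative control plasmid, assigned from the labels. The authors deposited linear intensities for 53144 spots of a 1-colour array labelled with Cy3, as written by Agilent Feature Extraction (version 11.0.1.1), with the local background subtracted and outlier and detection flags set by that software. The authors also deposited log2 values, quantile normalized in GeneSpring GX with arrays that are not named. The labels describe ligation of the dye to miRNA and the methods labelled cDNA.

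Control and outlier spots were left out, and means and SDs were taken over spots. For differences between probes, brightness below 1 was set to 1 before log2. Detection was the software's flag. Alternatives were tried for detection, for the level and margin of background (2-fold or 4-fold), for outlier spots, the summary over probes and normexp correction (limma 3.58.1, R 4.3.3, offset 50). Normexp used median spot signals. Python 3.11.15, numpy 2.4.6 and pandas 2.3.3 were used, and the probe summaries were tested on simulated data. The members and lists were chosen with earlier results of these data known. The miRNAs named were all members, their other arms, the related list, the lowest and highest epithelial markers and the detected stromal or endothelial markers. Those named after their values were seen were miR-192-5p, miR-143-3p, miR-200a-3p and miR-200c-3p. Sequences and positions came from RefSeq on GRCh38.p14. With 1 array no test was made, and array number limits the precision.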

Additional observations from a re-analysis of the deposited data

How the results depend on the processing

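The number of detected members stayed between 4 and 6 under the 4 other criteria. The 2 detected members near background became 0 without the brightest negative control probe and 4 after normexp correction, whose offset of 50 is added to every spot and narrows ratios. The count was between 2 and 3 under the other 3 settings. The 5 members whose probes differed by over 2 standard errors became 4 with outlier spots kept. They became 3 when a log2 difference over 1 was required, namely miR-142-3p, miR-150-5p and miR-146a-5p. The mean of miR-150-5p over all spots lay at -0.04 (log2) relative to the 99th percentile of the negative controls and changed sign in 4 settings, to 0.04 with outlier spots kept, 2.05 for the brightest probe, 1.12 without the brightest control probe and 0.14 as the deposited value over its lowest value. The first 2 follow from averaging probes that disagreed. The change without the brightest control probe follows from the lower level, 5.58 in place of 12.5. A deposited value over its lowest value cannot be below 0, so that change of sign was fixed by the measure. Of the 25 alternatives for the log2 signal of the 5 detected members, 11 moved it by less than the SD over spots, 10 moved it by more with the same sign, and 4 are those given for miR-150-5p. For the marker and related lists, 3 further criteria were chosen after seeing the data. Requiring a share of 0.5 or higher of positive and significant spots raised the related miRNAs from 6 to 10 and the stromal or endothelial markers from 2 to 4, while all human miRNAs rose from 56.8% to 68.9%. The epithelial count became 8, and the blood-lineage count was 5 with it and 4 with the other criteria. The other list counts did not change. No paired analysis was possible because 1 array holds no pairs. Signals of about 10, as for miR-146a-5p, cannot be told apart from the brightest negative control probe.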
